A study of Mus musculus with 4 samples.

Results

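The Rnf genes are the mouse genes whose symbol is Rnf followed by a number, short for RING finger. All 84 rows of the count tables with such a symbol were taken, out of 36528 rows, with suffix letters allowed and pseudogene rows left out. Rnf121 was chosen by its difference between COP1 KO and HET in these same libraries, so its COP1 KO over HET values are given as a description and without a test. The other Rnf genes entered by name alone.

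Single cells from the cortex of 4 C57BL/6 mouse embryos at E16.5 were sequenced by a droplet method that counts the 3′ ends of transcripts. There were 2 COP1 KO libraries and 2 HET libraries, 1 per mouse. COP1 is the substrate-binding part of a ubiquitin ligase and is itself a RING protein. HET is not defined in the labels, and CKO stands in the titles for COP1 KO, with neither a Cre driver nor the deleted exons named.

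A RING domain is a zinc-binding fold that brings a ubiquitin-loaded E2 enzyme to a substrate, so most RING proteins act as E3 ubiquitin ligases. Ubiquitin chains send proteins to the proteasome or change where they go and what they bind. The Rnf symbol marks the fold and not a common ancestor, and its members range from membrane proteins of the endoplasmic reticulum (ER), Golgi and endosome to nuclear enzymes that modify histones. Rnf121 is a membrane ligase of the ER and Golgi, known in zebrafish for its part in bringing voltage-gated sodium channels to the cell surface.

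Libraries held 28049007 and 28988265 counts in COP1 KO and 28327090 and 28071382 in HET. After filtering, 5195 and 4729 COP1 KO cells and 4545 and 4314 HET cells were kept. Their median depth was 4505 and 5134 counts in COP1 KO against 5171 and 5476 in HET. The median mitochondrial share of counts was 1.27% and 1.24% in COP1 KO and 1.14% and 1.13% in HET. By the Xist level each genotype had 1 female and 1 male library, and any pair of libraries shared 22 to 40 cell barcodes. Rfwd2, the symbol of the COP1 gene in these tables, had 30.5 and 29.7 CPM in COP1 KO and 32.0 and 39.2 CPM in HET (log2 change −0.22, edgeR adjusted p = 0.531). A count of 3′ ends checks the deletion only where it falls in the deleted part, which the labels do not give. COP1 KO 1 stood apart, with 4.68% of 7517 genes at a log2 distance over 0.5 to the average of the rest. The same share was 0.931% in COP1 KO 2, 1.56% in HET 1 and 1.08% in HET 2. Among 51 Rnf genes so compared, 6 passed that distance in COP1 KO 1, and only Rnf121 did in each of the other libraries. Cells were grouped with the Rnf genes left out of the variable genes, giving 8 classes named by markers and 5 clusters called by number, each with at least 20 cells in every library. Cluster 1 was led by Hs3st4, Nxph3 and Tle4, cluster 3 by Pdzrn3 and Unc5d, cluster 7 by Fam19a1, Nefl and Nefm, cluster 9 by Lhx8, Resp18 and Hap1, and cluster 20 by Spc25, Top2a and Neurog2. Among the named classes were striatal and ganglionic-eminence-like cells, whose markers are those of the ventral forebrain and not of the labelled cortex. Levels are given as CPM, the counts scaled to a common library total, over the summed cells of a library or class. They were not divided by gene length, because a molecule is counted once at its 3′ end. In such sums, fewer expressing cells and less RNA per cell cannot be told apart.

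Rnf121 lies on the minus strand of chromosome 7 in GRCm38.p6, at 102019137 to 102072437. The sequence below is its RefSeq promoter window, chr7:102065116-102065415 on the minus strand. It is shown because the neighbouring gene Xndc1 starts close to it, at 102065491, within the annotated span of Rnf121, and its level is set beside that of Rnf121 further on. Capitals mark the bases from the start used for that window onwards. The transcripts listed for Rnf121 start elsewhere, the furthest upstream at 102065469, while the annotated span runs to 102072437.
Rnf121 promoter: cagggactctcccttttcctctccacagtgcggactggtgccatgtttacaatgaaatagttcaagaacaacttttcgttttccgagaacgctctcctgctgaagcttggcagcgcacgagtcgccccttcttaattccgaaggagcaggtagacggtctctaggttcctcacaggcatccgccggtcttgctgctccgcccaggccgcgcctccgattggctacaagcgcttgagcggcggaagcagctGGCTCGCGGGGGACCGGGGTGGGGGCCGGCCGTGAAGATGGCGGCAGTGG

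An AP-1 motif (TGANTCA, N for any base) and a long form of the ETS site (CCGGAA) were searched on both strands, because COP1 is known to target c-JUN and ETS factors for destruction. The window had 0 matches to either. It does hold the shorter ETS core GGAA on both strands, which was not searched for. Among 32851 promoter windows of the same length, 7.81% held the AP-1 motif and 14.9% CCGGAA. Of 84 windows found for 66 of the Rnf genes, 6 held the AP-1 motif and 19 CCGGAA.

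In the whole libraries Rnf121 had 119.4 and 114.6 CPM in COP1 KO and 60.8 and 59.1 CPM in HET. Both COP1 KO libraries thus stood well above both HET libraries, with means of 117.0 ± 3.35 CPM in COP1 KO and 59.9 ± 1.17 CPM in HET (SD, n = 2 each). The log2 change was 0.99 (SE 0.053). It ranged between 0.94 and 1.04 when each library was left out in turn. These same libraries chose the gene, so that range is a description and not support. Cells with at least 3 Rnf121 counts made up 4.74% and 5.84% of COP1 KO cells, against 0.902% and 1.04% of HET cells.

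With every cell reduced to 2000 counts, 20.02% and 19.78% of COP1 KO cells held at least 1 Rnf121 count (exact 95% intervals 18.92 to 21.15 and 18.65 to 20.95), against 11.001% and 11.06% of HET cells (10.11 to 11.95 and 10.14 to 12.03). Intervals cover counting error only. The share was 1.80 times higher in COP1 KO at this depth, with 161 shallower COP1 KO cells and 0 HET cells left out. Without the reduction it was 1.37 times higher. No class that is known to lack Rnf121 was at hand to give a background share.

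The next question was whether Rnf121 differed equally in every cell type. It did not. The choice of the gene used no difference between classes, but the class sums are parts of the library sums that it did use. The test and rank given here are therefore not fully independent of that choice. The change differed between the 13 classes and clusters, by the class-by-genotype test across all genes (edgeR quasi-likelihood test, F = 15.97, adjusted p = 1.02e-10). By that test 2.93% of 13630 genes were called, and Rnf121 ranked 3. The adjusted p stayed between 4.48e-08 and 5.43e-06 with each library left out.

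By CPM, cluster 1 had the largest difference, with 230.3 and 198.7 CPM in COP1 KO against 64.5 and 61.9 CPM in HET (log2 change 1.78, SE 0.114). Striatal-projection-neuron-like cells followed, with 163.6 and 155.0 CPM in COP1 KO and 58.2 and 60.2 CPM in HET (log2 change 1.45, SE 0.121). In ganglionic-eminence-progenitor-like cells Rnf121 had 75.9 and 70.5 CPM in COP1 KO and 32.6 and 30.8 CPM in HET (1.25, SE 0.227). The ganglionic eminence progenitors were the lowest of all in HET, while cluster 1 and the striatal cells were in the middle. The share of cells with Rnf121 gave no stable order. Its ratio of COP1 KO over HET was 2.82 in cluster 1 and 2.94 in cluster 7 at 2000 counts a cell. At 1000 counts a cell it was 3.07 in cluster 1 and 1.40 in cluster 7.

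Cluster 9 had 130.3 and 140.6 CPM in COP1 KO and 59.0 and 58.1 CPM in HET (log2 change 1.23). Cluster 7 had 134.5 and 129.2 CPM in COP1 KO and 59.4 and 55.4 CPM in HET (1.21). Cortical-interneuron-like cells had 134.8 and 139.2 CPM in COP1 KO and 61.6 and 65.0 CPM in HET (1.14). In all 3 the libraries of one genotype lay close together and the genotypes far apart.

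Excitatory-neuron-like cells, the most numerous class, had 120.0 and 114.3 CPM in COP1 KO and 65.6 and 65.2 CPM in HET (log2 change 0.87, SE 0.063). Radial-glia-like cells, the cortical stem cells, had 70.9 and 73.5 CPM in COP1 KO and 50.2 and 47.3 CPM in HET (0.61, SE 0.134). Intermediate-progenitor-like cells, which divide to give neurons, had 71.9 and 66.5 CPM in COP1 KO and 55.4 and 52.4 CPM in HET (0.40, SE 0.180). The groups did not overlap in any of these 3 classes, but the distance between them was smaller in the progenitors.

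In oligodendrocyte-precursor-like cells Rnf121 had 67.3 and 62.4 CPM in COP1 KO and 49.0 and 49.7 CPM in HET (log2 change 0.36, SE 0.303), from only 34 and 38 cells in HET, against 115 and 138 in COP1 KO. Cluster 3 had 75.3 and 73.3 CPM in COP1 KO and 72.0 and 52.9 CPM in HET (0.30, SE 0.181). In both, the SE was large beside the change, which was not tested. The change of cluster 3 was 0.09 without HET 2 and 0.53 without HET 1.

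Cluster 20 and the Cajal-Retzius-like cells were the exceptions, with overlapping genotypes. Cluster 20 had 61.0 and 73.7 CPM in COP1 KO and 65.8 and 54.0 CPM in HET (log2 change 0.18, SE 0.267), and its change was 0.06 without HET 2, 0.07 without COP1 KO 2, 0.29 without COP1 KO 1 and 0.34 without HET 1. Cajal-Retzius-like cells, the early reelin-producing neurons of the cortical surface, had 76.1 and 87.6 CPM in COP1 KO and 72.5 and 92.4 CPM in HET (0.02, SE 0.236). Their sign was not stable, and it turned to −0.07 without COP1 KO 2 and to −0.15 without HET 1. In all, both COP1 KO libraries were above both HET libraries in 11 of the 13. The 13 divide the same libraries whose difference chose Rnf121, so this count is a description and not repeated evidence.

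**Figure D1:**
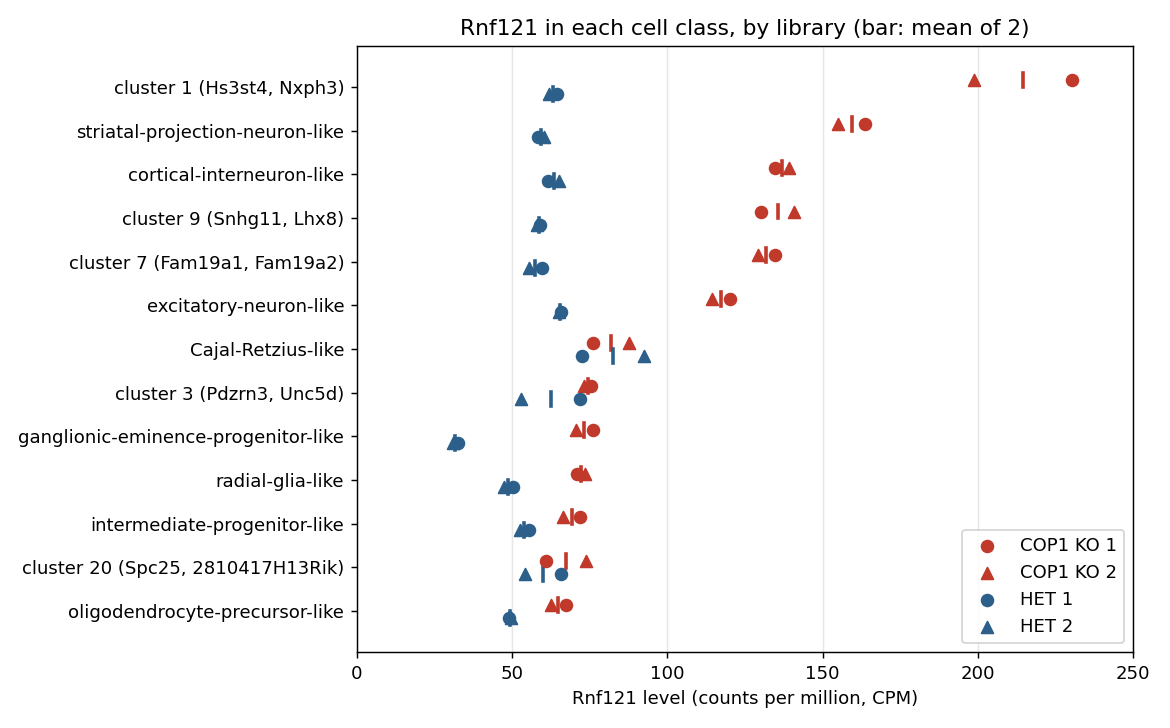
Rnf121 level in CPM (horizontal axis) in each class or cluster (rows, highest COP1 KO mean at the top), with 1 point per library and a bar at the mean of 2. COP1 KO class means run between 64.9 and 214.5 CPM, while HET class means lie between 31.7 and 82.5 CPM.

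The order of the levels differed between the genotypes. In COP1 KO, class means ran from 64.9 CPM in oligodendrocyte-precursor-like cells to 214.5 CPM in cluster 1, a 3.31-fold range. Cluster 1 and the striatal cells stood above all others in COP1 KO without overlap. The interneurons, cluster 9 and cluster 7 followed, and neighbours in that order overlapped in their libraries. Below the excitatory neurons and the Cajal-Retzius-like cells, the last 6 in COP1 KO lay between 64.9 and 74.3 CPM, and each overlapped its neighbour in that order. In HET, class means ran from 31.7 CPM in the ganglionic eminence progenitors to 82.5 CPM in the Cajal-Retzius-like cells, a 2.60-fold range. There 8 of the 13 lay between 57.4 and 65.4 CPM. Among these the excitatory-neuron-like cells were just above the next class in both libraries, and the neighbours below them overlapped.

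Within the named classes, the single clusters were uneven too. Of 22 clusters with enough cells, both COP1 KO libraries were above both HET libraries in 20, and these clusters too divide the libraries that chose the gene. In striatal cluster 8, led by Ebf1, Isl1 and Tac1, Rnf121 had 197.9 and 183.9 CPM in COP1 KO and 51.9 and 54.1 CPM in HET, a ratio of 3.60. In striatal cluster 13, led by Six3, Adora2a and Penk, it had 106.5 and 110.9 CPM in COP1 KO and 69.4 and 69.3 CPM in HET, a ratio of 1.57. Thus the striatal cluster that was higher in COP1 KO was the lower one in HET.

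Among excitatory-neuron-like clusters the highest ratio was 2.93 in cluster 19, led by Nrgn and Fxyd7, which had 143.2 and 139.8 CPM in COP1 KO and 52.0 and 44.7 CPM in HET. Among interneuron-like clusters, cluster 2, led by Sst, Npy and Lhx6, had 151.4 and 159.6 CPM in COP1 KO and 65.0 and 60.2 CPM in HET (ratio 2.48). Cluster 11, led by Htr3a and Sp8, had 107.4 and 103.4 CPM in COP1 KO and 54.9 and 74.1 CPM in HET (1.63). Differences between single clusters of a class were not tested.

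The smaller classes gave few counts. Fibroblast-like cells had 60.3 and 68.2 CPM in COP1 KO and 40.3 and 60.2 CPM in HET, from 8 to 19 counts a library. Endothelial-like cells had 63.0 and 57.1 CPM in COP1 KO and 24.0 and 39.7 CPM in HET, from 6 to 29 counts. Microglia-like cells held 12 and 8 counts in COP1 KO and 0 and 3 in HET, mural-like cells 3 and 4 in COP1 KO and 4 and 6 in HET, and erythroid-like barcodes 2 and 3 in COP1 KO and 1 and 0 in HET.

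A row named only by a number was found to lie within Rnf121: in every barcode its count was at most that of Rnf121. It held 1428 counts, against 9788 of Rnf121 over all barcodes, and neither its position nor its gene is given in the sources used here. The Rnf121 counts could therefore be split into those also in this row and the rest. This split was chosen after the values were seen.

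The shared portion had 12.03 and 12.88 CPM in COP1 KO and 14.57 and 12.23 CPM in HET, a ratio of 0.93, so the genotypes overlapped. The rest had 107.3 and 101.7 CPM in COP1 KO and 46.2 and 46.9 CPM in HET, a ratio of 2.25. The shared counts made up 10.1% and 11.2% of Rnf121 counts in COP1 KO and 24.0% and 20.7% in HET. The difference between the genotypes thus lay in the counts that the numbered row does not hold.

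By class, the ratio of the rest ran between 1.05 in Cajal-Retzius-like cells and 3.95 in cluster 1, and the COP1 KO libraries were above the HET libraries in 12 of 13. The ratio of the shared portion ran between 0.61 and 1.40, and both COP1 KO libraries were above both HET libraries in 1 of 13, the oligodendrocyte-precursor-like cells. The order was the opposite in 4 of 13. With the rest alone, the change of Rnf121 still differed between classes (edgeR class-by-genotype test, adjusted p = 1.83e-09). The annotation lists 7 transcripts of Rnf121, of which 5 are protein-coding. Which of them the portions came from was not tested.

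**Figure D2:**
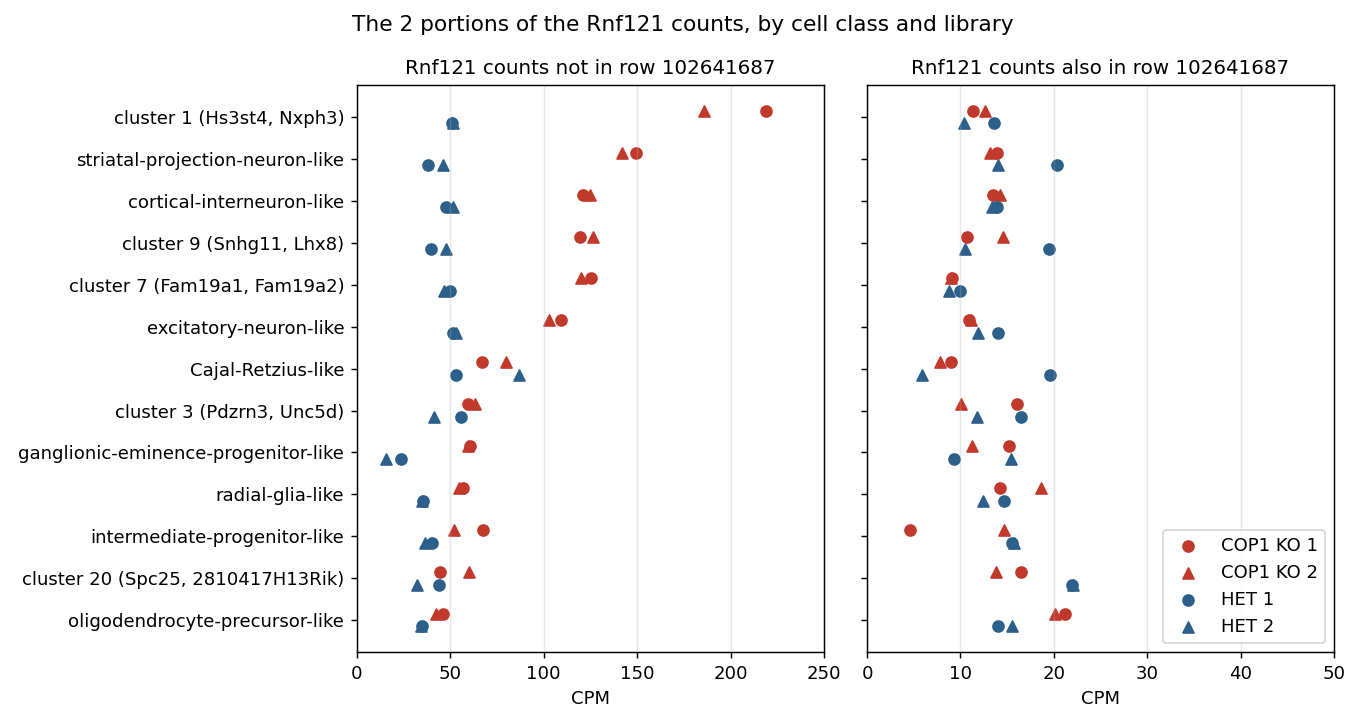
CPM of the Rnf121 counts outside the numbered row (left) and inside it (right) in each class or cluster, with 1 point per library; the horizontal scales differ. In the left panel both COP1 KO points lie above both HET points in 12 of 13 rows, while in the right panel COP1 KO lies above HET in 1 of 13.

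No tested gene beside Rnf121 on chromosome 7 had a log2 change of its size in the whole libraries. Xndc1, which starts beside it and overlaps its annotated span, had 14.52 and 14.996 CPM in COP1 KO and 16.59 and 16.70 CPM in HET (log2 change −0.15, edgeR adjusted p = 0.558). Numa1, which encodes a spindle-pole protein, had 41.2 and 41.5 CPM in COP1 KO and 39.2 and 42.5 CPM in HET (0.04, edgeR adjusted p = 0.837). Lamtor1, an anchor of mTORC1 signalling on lysosomes, had 150.4 and 154.5 CPM in COP1 KO and 146.5 and 146.3 CPM in HET (0.08, edgeR adjusted p = 0.502). Nup98, of the nuclear pore, was low in COP1 KO 1 alone, with 13.8 and 22.5 CPM in COP1 KO and 22.8 and 23.8 CPM in HET (−0.34, edgeR adjusted p = 0.593). At low levels, both COP1 KO libraries were below both HET libraries in Il18bp, which encodes a binder of interleukin 18, and in Art5, an ADP-ribosyltransferase. Il18bp had 0.490 and 0.969 CPM in COP1 KO and 1.06 and 1.19 CPM in HET (−0.60, edgeR adjusted p = 0.578). Art5 had 0.339 and 0.717 CPM in COP1 KO and 0.918 and 0.895 CPM in HET (−0.74, edgeR adjusted p = 0.539). Within 500 kb on either side, no tested neighbour passed the threshold of 0.05. Only 0.0118% of all 16977 genes did in the whole libraries, so the lack of calls says little about the neighbours.

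Across the 52 class-by-library sums, the genes whose log2 CPM ran most like that of Rnf121, out of 7639 genes, were Abhd17a (Pearson r 0.706), LOC102642884 (0.706), Cox7c (0.700), Smap2 (0.677) and Rnf11 (0.676). These sums share libraries and depth and hold the genotype difference that chose Rnf121, so the values are a description. In the whole libraries Abhd17a, Smap2 and Rnf11 were highest in COP1 KO 1, the library that stood apart, while LOC102642884 and Cox7c were not. LOC102642884 and Cox7c had nearly equal levels and may share reads. Rnf11 was the only Rnf gene among the 5.

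The other question was whether Rnf121 moved alone. Of the 84 Rnf genes, 71 passed the filter on low counts in the whole libraries and 13 did not. Besides Rnf121, 70 were tested and 0 passed the edgeR threshold of adjusted p under 0.05, where 0.0118% of all 16977 genes did. At an unadjusted p under 0.05 there were 10. This count was not set against the share of all genes, so neither an excess nor a lack can be read from it. DESeq2 also called 0 of the Rnf genes besides Rnf121, where it called 1.07% of genes. Without a filter on low counts edgeR again called 0 of them, where 0.00378% of genes were called. Of the 70, 37 had a positive log2 change and 33 a negative one, with a median of 0.01, against 0.00 for all genes.

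These tests rest on 2 mice a group, and p-values measure only the spread between these libraries. Summed over all 84 genes, the level was 4532 and 4450 CPM in COP1 KO and 4400 and 4424 CPM in HET.

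**Figure D3:**
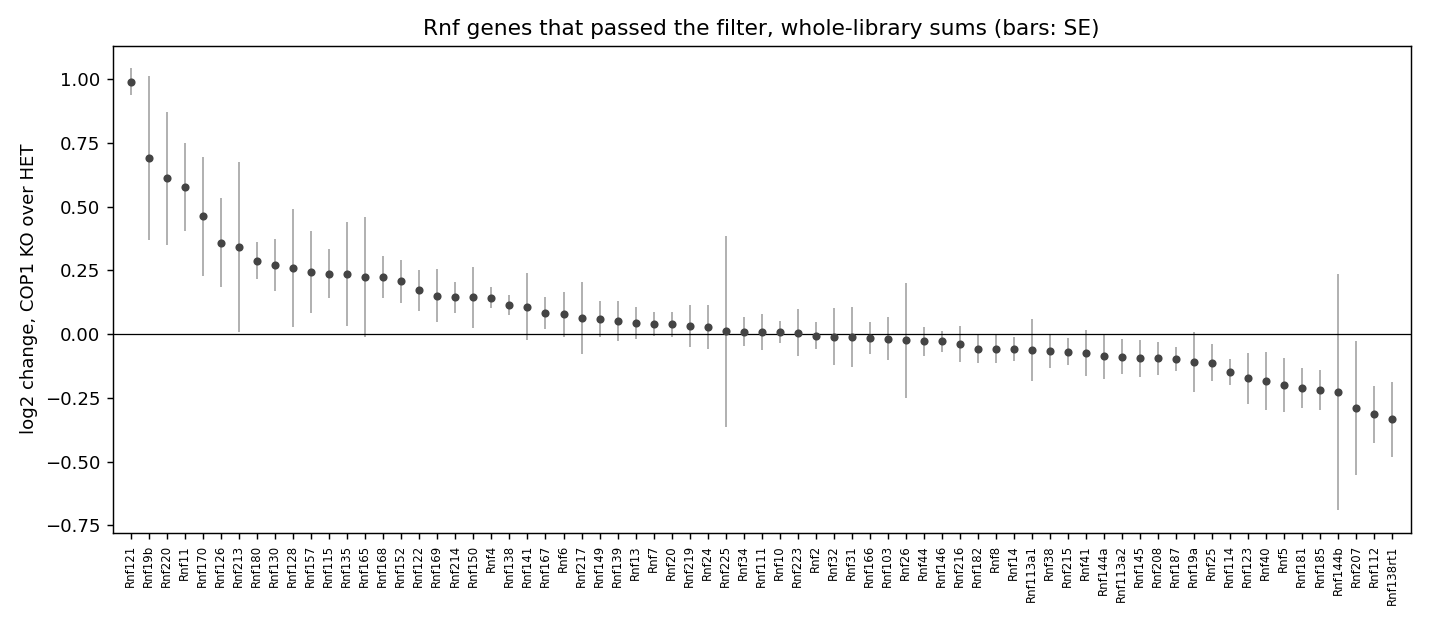
The log2 change of COP1 KO over HET (vertical axis) with its SE (bars) for the 71 Rnf genes that passed the filter, ordered from highest to lowest. Rnf121 at 0.99 stands first with a short bar, and Rnf19b, Rnf220 and Rnf11 follow with long bars.

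Rnf121 was the only Rnf gene with a log2 change over 0.9, a size that chose it and that 1.58% of all genes reached. After it, 3 genes had a log2 change beyond 0.5, a size that 9.75% of all genes reached. Rnf19b, a RING-between-RING ligase of natural killer cells and macrophages, had 35.4 and 18.2 CPM in COP1 KO and 17.2 and 16.7 CPM in HET (log2 change 0.69, SE 0.320, edgeR adjusted p = 0.5002). Rnf220, a ligase with a part in the patterning of the neural tube, had 115.0 and 67.0 CPM in COP1 KO and 58.0 and 63.5 CPM in HET (0.61, edgeR adjusted p = 0.488). Rnf11, a small endosomal RING protein that works with A20 in NF-κB signalling, had 147.4 and 103.7 CPM in COP1 KO and 86.0 and 85.6 CPM in HET (0.58, edgeR adjusted p = 0.397). In all 3, COP1 KO 1 was far above the rest and COP1 KO 2 lay much closer to HET.

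The same library set apart Rnf126 and Rnf165. Rnf126, which ubiquitinates mislocalised membrane proteins together with BAG6, had 154.8 and 110.0 CPM in COP1 KO and 99.5 and 111.0 CPM in HET (log2 change 0.36, edgeR adjusted p = 0.514). Rnf165, known in mouse for enhancing BMP signals in motor axon growth, had 214.9 and 132.4 CPM in COP1 KO and 142.7 and 160.6 CPM in HET (0.22, edgeR adjusted p = 0.739). Without COP1 KO 2, 9 of the other Rnf genes were called, among them these 5, where 6.59% of all genes were called. Without COP1 KO 1, 0 were called, and the log2 change fell to 0.10 for Rnf19b, 0.15 for Rnf220, 0.28 for Rnf11 and 0.07 for Rnf126. That of Rnf165 was then −0.19.

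**Figure D4:**
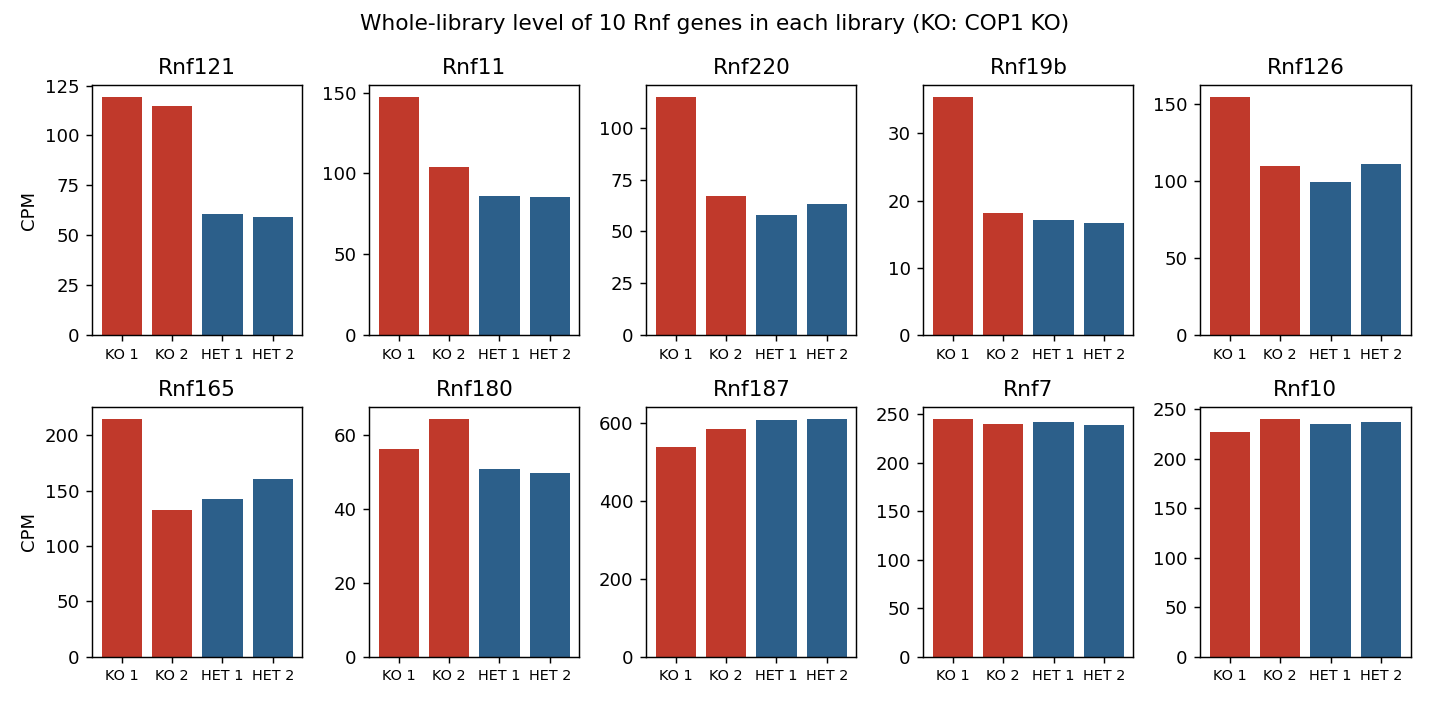
Whole-library CPM of 10 Rnf genes in each library (COP1 KO libraries left of HET libraries, each panel with its own scale from 0). In Rnf121 both COP1 KO bars are high, while in Rnf19b, Rnf220, Rnf126 and Rnf165 only that of COP1 KO 1 is.

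Rnf11 had a positive log2 change in all 13 classes and clusters. It lay between 0.43 in striatal-projection-neuron-like cells and 0.76 in cluster 7, and both COP1 KO libraries were above both HET libraries in 12 of the 13, the exception being cluster 3. Rnf126, Rnf130 and Rnf220 likewise had a positive change in all 13. These 4 were 9.52% of the 42 Rnf genes besides Rnf121 that were fitted in all 13, against 4.49% of 5835 genes of all kinds. The 13 share their libraries, and in the whole libraries all 4 genes were highest in COP1 KO 1, the library that stood apart. For Rnf11 the smallest edgeR adjusted p in any class was 0.111, in radial-glia-like cells. In those cells Rnf11 had 115.7 and 81.4 CPM in COP1 KO and 62.4 and 70.0 CPM in HET.

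Of the membrane-bound ligases of ER, Golgi and endosome, the group to which Rnf121 belongs, 16 others were tested in the whole libraries. Of these 7 had a positive and 9 a negative log2 change, with 0 calls and a median of −0.02. Rnf180, an ER ligase that targets monoamine oxidase A in mouse brain, had 56.2 and 64.3 CPM in COP1 KO and 50.7 and 49.6 CPM in HET (log2 change 0.29, edgeR adjusted p = 0.328). Rnf170, which acts on inositol trisphosphate receptors, had 3.70 and 4.27 CPM in COP1 KO and 3.52 and 2.35 CPM in HET (0.46, edgeR adjusted p = 0.523). Rnf5, of ER quality control, had 141.2 and 179.3 CPM in COP1 KO and 191.5 and 182.0 CPM in HET (−0.20, edgeR adjusted p = 0.536). Its relative Rnf185 had 22.9 and 21.9 CPM in COP1 KO and 25.9 and 27.2 CPM in HET (−0.22, edgeR adjusted p = 0.451).

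Of the Rnf genes other than Rnf121, whose difference between the genotypes was not tested, only Rnf152 was called in any class. This lysosomal ligase, which restrains mTORC1 by acting on the RagA GTPase, had 29.3 and 38.2 CPM in radial-glia-like cells of COP1 KO and 15.7 and 8.16 CPM in those of HET. The counts behind these levels were 66 and 92 in COP1 KO and 31 and 19 in HET. The log2 change of Rnf152 there was 1.57 with an SE of 0.288 (edgeR adjusted p = 0.0161), in a class where 3.17% of 11637 genes were called and 62 Rnf genes besides Rnf121 were tested. Without HET 2 the log2 change was 1.14 and the call was lost (edgeR adjusted p = 0.0841). It was also lost when p-values were adjusted over all genes and classes together (edgeR adjusted p = 0.0746). In the other 12 classes and clusters 0 were called by edgeR. With sex as a covariate, calls outside the radial-glia-like cells came to 1 in the other named classes, for Rnf11, and to 4 in the numbered clusters, for Rnf11 in 2 of them and for Rnf19b and Rnf220 in 1 each. The share of all genes called was 0% in excitatory-neuron-like cells and cluster 3, 0.0192% in interneuron-like, 0.029% in striatal, 0.145% in ganglionic eminence progenitor, 0.245% in oligodendrocyte-precursor-like and 0.0134% in Cajal-Retzius-like cells. It was 0.149% in cluster 1, 0.0378% in cluster 7, 0.0185% in cluster 9, 0.697% in intermediate progenitors and 0.834% in cluster 20.

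Both radial-glia-like clusters showed the order of the genotypes. In cluster 12, led by Aldoc and Hes5, Rnf152 had 24.1 and 47.4 CPM in COP1 KO and 19.2 and 9.72 CPM in HET. In cluster 15, led by Hes1 and cell cycle genes, it had 36.7 and 29.3 CPM in COP1 KO and 12.9 and 6.69 CPM in HET. Cluster 12 held 259 and 205 cells in COP1 KO against 161 and 170 in HET, and cluster 15 126 and 132 in COP1 KO against 123 and 129 in HET.

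In the other 9 classes and clusters where Rnf152 was fitted, its log2 change was positive in 8 and 0 were called. Cluster 3 had 16.1 and 11.9 CPM in COP1 KO and 3.89 and 6.72 CPM in HET (log2 change 1.41, edgeR adjusted p = 0.360). Cluster 1 had 22.0 and 16.4 CPM in COP1 KO and 25.5 and 28.4 CPM in HET (−0.46, edgeR adjusted p = 0.621), the negative value of the 9. Excitatory-neuron-like cells had 21.6 and 19.4 CPM in COP1 KO and 21.0 and 18.2 CPM in HET (0.09). The change of Rnf152 differed between classes (edgeR class-by-genotype test, adjusted p = 0.0135), a call that was lost without HET 1, without HET 2 and without COP1 KO 2. It was the only Rnf gene besides Rnf121 with such a call.

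The protease-associated-domain ligases are single-pass proteins of endosome and cell surface. Of 10, 7 were tested in the whole libraries, 6 with a positive and 1 with a negative log2 change and 0 called (median 0.08). Rnf130 had 88.6 and 74.4 CPM in COP1 KO and 67.4 and 70.1 CPM in HET (0.27, edgeR adjusted p = 0.459). Rnf13, an ER and endosome ligase, had 56.6 and 62.2 CPM in COP1 KO and 57.4 and 59.9 CPM in HET (0.04). The groups of Rnf130 did not overlap and those of Rnf13 did. Over all genes tested, 19.4% had both COP1 KO libraries above both HET libraries, and 19 of the 70 Rnf genes did. For the opposite order the share was 26.3%, and 22 Rnf genes showed it.

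The RING-between-RING ligases take the ubiquitin onto themselves before passing it on. All 8 were tested, 2 with a positive and 6 with a negative log2 change and 0 called (median −0.05). Rnf19a, the closest relative of Rnf19b, had 27.3 and 34.7 CPM in COP1 KO and 33.0 and 34.9 CPM in HET (−0.11, edgeR adjusted p = 0.744). Of its 3607 counts, 2568 also stood in the row of the microRNA gene Mir8097, so its level is uncertain. Rnf144b had 0.302 and 0.7175 CPM in COP1 KO and 0.624 and 0.597 CPM in HET (−0.23).

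The chromatin and DNA damage ligases included Rnf2, the catalytic subunit of Polycomb complex PRC1, and Rnf20 and Rnf40, which together ubiquitinate histone H2B. All 9 were tested, 6 with a positive and 3 with a negative log2 change and 0 called (median 0.04). Rnf2 had 126.0 and 140.2 CPM in COP1 KO and 135.3 and 136.5 CPM in HET (−0.01). Rnf40 had 24.3 and 29.9 CPM in COP1 KO and 32.9 and 29.7 CPM in HET (−0.18, edgeR adjusted p = 0.583), and Rnf20 70.4 and 73.8 CPM in COP1 KO and 70.0 and 72.9 CPM in HET (0.04). Rnf168, which spreads ubiquitin on histone H2A around DNA breaks, had 23.2 and 21.9 CPM in COP1 KO and 19.7 and 19.6 CPM in HET (0.22, edgeR adjusted p = 0.458). Rnf4, of the SUMO-targeted ligases, had 87.3 and 88.8 CPM in COP1 KO and 80.6 and 81.5 CPM in HET (0.14, edgeR adjusted p = 0.393), and Rnf111, the other, had a log2 change of 0.01. The libraries of Rnf168 and Rnf4 did not overlap between the genotypes, though neither passed the threshold.

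Of 8 ligases described in neurons, 5 had a positive and 3 a negative log2 change and 0 were called (median 0.04). Rnf112, a GTPase with a RING domain also known as neurolastin, had 12.5 and 14.9 CPM in COP1 KO and 17.6 and 17.1 CPM in HET (−0.32, edgeR adjusted p = 0.449). Rnf182, a brain-rich ligase, had 130.1 and 122.2 CPM in COP1 KO and 134.0 and 133.2 CPM in HET (−0.06). Rnf7, a partner of cullin ligases, had 245.4 and 239.7 CPM in COP1 KO and 241.6 and 238.5 CPM in HET (0.04). Rnf146, which degrades axin in the Wnt pathway, had 146.1 and 154.5 CPM in COP1 KO and 157.1 and 154.7 CPM in HET (−0.03). Of the Wnt pathway ligases 2 of 3 and of the innate immune ligases 4 of 5 were tested, each with equal numbers in either direction and 0 called. The lowest log2 changes among genes with at least 5 CPM were those of Rnf138rt1 (−0.33), Rnf112, Rnf185, Rnf181 (−0.21) and Rnf5, each short of the threshold.

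By level, Rnf187 was the highest Rnf gene, with 537.1 and 582.4 CPM in COP1 KO and 607.6 and 610.0 CPM in HET (log2 change −0.10, edgeR adjusted p = 0.516). Its product is known as a coactivator of c-JUN, a COP1 target. Rnf7 and Rnf10 came next, followed by Rnf5, Rnf14 and Rnf165, whose libraries overlapped one another, and then Rnf146, Rnf138, Rnf2 and Rnf182. Over the 4 libraries 12 Rnf genes averaged at least 100 CPM, 59 at least 10 and 67 at least 1, and the median was 28.6. Rnf133, Rnf148 and Rnf186 had 0 counts in kept cells of every library, and 6 more had 1 to 10.

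Among cell types, Rnf180 stood out in radial glia. Its levels there were 218.1 and 248.2 CPM in COP1 KO and 205.8 and 174.0 CPM in HET, above every other class and cluster in every library. Oligodendrocyte-precursor-like cells (mean of 4 libraries 130.9 CPM) and ganglionic eminence progenitors (105.6) came next, and cluster 1 was lowest at 24.4. Cluster 1, the lowest for Rnf180, was the highest for Rnf121 in COP1 KO. Rnf182 was highest in excitatory-neuron-like cells, with 206.4 and 190.4 CPM in COP1 KO and 201.6 and 207.5 CPM in HET, and lowest in ganglionic eminence progenitors (mean 31.1).

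Cluster 9 had the highest mean of Rnf138rt1 (32.7 CPM, against a median class of 3.16), Rnf112 (35.4, against 7.44), Rnf152 (57.0, against 20.1) and Rnf19b (40.8, against 20.7). Rnf138rt1 is a retrotransposed copy of Rnf138 by its name, so reads may be shared between them. Rnf112 was near 0 in progenitors, with 0.855 CPM in radial-glia-like cells and 0.576 in cluster 20. In cluster 1 it was as high as in cluster 9, at 34.8 CPM.

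Ganglionic eminence progenitors and cluster 20, in both of which Top2a was a leading gene, had the highest means of another set. Rnf223 averaged 45.8 CPM in ganglionic eminence progenitors and 36.1 in cluster 20, against a median class of 13.1. Rnf26, an ER protein that arranges endosomes, averaged 17.0 CPM in cluster 20 and 16.7 in ganglionic eminence progenitors (median class 4.81). Rnf168 averaged 49.3 and 43.5 CPM in the same pair of groups (20.3), and Rnf144a 57.3 CPM in cluster 20 (26.2). For these 4 the highest value was at least 2.18 times the median class.

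Other classes had the highest level of further genes. Cajal-Retzius-like cells had the highest Rnf208 (130.6 CPM, median class 57.4), and striatal-projection-neuron-like cells the highest Rnf128 (10.7, against 1.28), a ligase known as GRAIL that limits T-cell activation. Intermediate-progenitor-like cells were highest for Rnf122 (47.9, against 24.8) and Rnf217 (13.1, against 6.28), and cluster 1 for Rnf32 (26.3, against 11.4). Levels across classes describe the cells and were not tested.

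**Figure D5:**
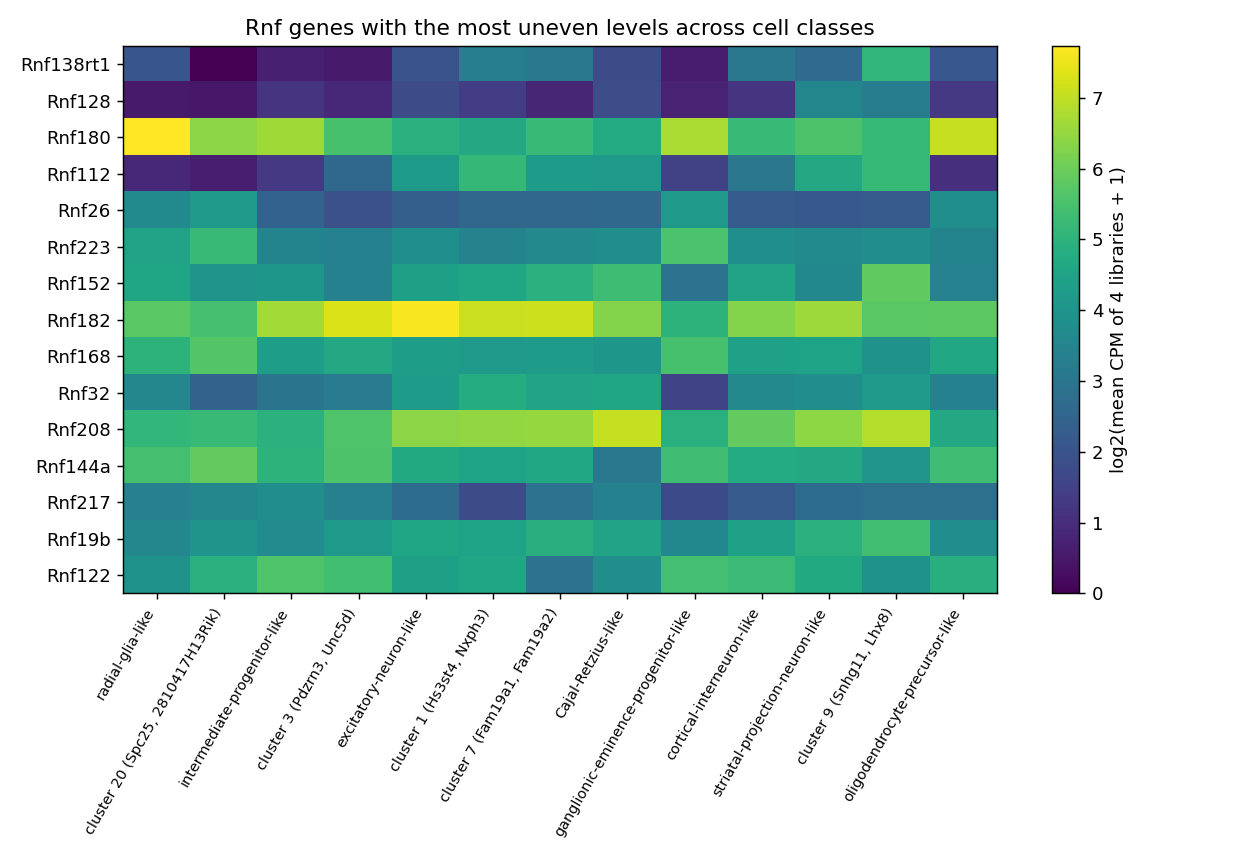
Mean level over 4 libraries, as log2(CPM + 1) in color, for the 15 Rnf genes with the highest ratio of top class to median class and at least 10 CPM in the top class (rows), in 13 classes and clusters (columns). Rnf180 is brightest in radial-glia-like cells and Rnf182 in excitatory-neuron-like cells.

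Of 85 RING ligases with other names, taken for comparison, 84 were in the tables and tested in the whole libraries, 39 with a positive and 45 with a negative log2 change, and 0 were called (median −0.01). Within classes, Trim9, a neuronal ligase of axon guidance, was higher in COP1 KO radial-glia-like cells (log2 change 1.29, edgeR adjusted p = 0.00480). There March4 was also higher (2.22, edgeR adjusted p = 0.0208) and Pja1 lower (−0.40, edgeR adjusted p = 0.0457), in a class where 3.17% of all genes were called. March4 had only 23 and 22 counts there in COP1 KO and 4 and 5 in HET. In the whole libraries its log2 change was −0.33 (edgeR adjusted p = 0.410). March11 was higher in intermediate-progenitor-like cells (2.02, edgeR adjusted p = 0.0104), where 0.697% of genes were called, and March7 lower in cluster 20 (−0.93, edgeR adjusted p = 0.0257), where 0.834% were. These calls were not set against the number of such ligases tested in each class, so no excess can be read from them.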

How the data were processed

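Each library came as 1 deposited table of raw counts, with genes against cell barcodes and no scaling. Per the submitters' processing notes the aligner was GSNAP and the build GRCm38 (mm10). How genes were counted, molecules collapsed and barcodes called is not given in the sources used here. Of the rows, 3065 carried only a number (1.69% of counts), and 367 copies of rows with identical counts (1.34%) were removed. Of 19237 barcodes, 222 with under 500 genes, 1 with over 10% mitochondrial counts and 231 with a doublet score over 0.25 were removed, leaving 18783 cells. Cells were clustered with scanpy 1.11.5 (2000 variable genes, 30 components, 15 neighbours, resolution 1), and clusters were named from markers. Counts summed per library, or per class and library, were tested with edgeR 4.0.16 in R 4.3.3 (TMM, filterByExpr, quasi-likelihood test, Benjamini-Hochberg over all genes, threshold 0.05); class by genotype was tested in 1 fit with library as a block. DESeq2 1.42.0 was an alternative. On simulated counts, edgeR recovered 89.0% of 2-fold changes in whole libraries, 86.0% in radial-glia-like cells and 84.5% by class and genotype. The simulation gave all genes the same spread, set no library apart and changed only genes with enough counts. These shares thus do not give the power of the tests in the real libraries. Named genes were Rnf121, called genes, the 5 largest changes either way at 5 CPM or more, the 10 highest, 15 uneven across classes, up to 4 a role group, neighbours within 500 kb and the 5 most alike. The members, lists and rules were chosen with earlier results of these data known. Promoter sequences and gene coordinates are from RefSeq (GRCm38.p6).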

Additional observations from a re-analysis of the deposited data

Results flagged for a closer look

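Rnf121 was set apart because its COP1 KO over HET change differed between the 13 classes and clusters (edgeR class-by-genotype test, adjusted p = 1.02e-10), with log2 changes between 0.02 in Cajal-Retzius-like cells and 1.78 in cluster 1. Rnf152 was flagged by the same test (edgeR adjusted p = 0.0135), with log2 changes between −0.46 in cluster 1 and 1.57 in radial-glia-like cells. It ranked 270 of 13630 genes, where Rnf121 ranked 3 and 2.93% were called. As given above, its call was lost when some single libraries were left out.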

How the results depend on the processing

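Counts of other Rnf genes called were the most dependent on the libraries. In the whole libraries 0 were called, and 0 to 9 with each library left out (9 without COP1 KO 2). Summed over the 8 named classes there was 1 call, against 8 with no filter on low counts (1.39% of Rnf gene tests, against 1.23% of all gene tests), 2 with sex as a covariate (0.44%, against 0.806%), 0 when adjusted over all genes and classes together, and 1 to 31 with each library left out. In the 5 numbered clusters there were 0 calls, against 12 with no filter (3.39%, against 1.08%), 4 with sex as a covariate (1.36%, against 0.624%), and 0 to 27 with each library left out (most without COP1 KO 2 in both cases). Without COP1 KO 2 the 31 calls were 6.72% of Rnf gene tests in the named classes, against 4.11% of all gene tests, and the 27 in the numbered clusters were 8.97%, against 3.98%. Besides Rnf121, 1 Rnf gene differed by class, against 2 with no filter and 0 to 1 with each library left out. The class-by-genotype adjusted p of Rnf121 stayed under 0.05 in every alternative, with edgeR values between 2.51e-21 and 1.74e-05, the last with the Rnf genes allowed in the clustering. The ratio of shares of cells with Rnf121 was 1.75 at 1000 counts a cell, 1.37 with no thinning and 1.73 with doublets kept, against 1.80. The Cajal-Retzius-like log2 change of Rnf121, 0.02, turned to −0.00465 with library totals alone and lay between −0.15 and 0.21 with each library left out. The cause of these shifts was not tested. The labels give no replicate numbers that tie a COP1 KO mouse to a HET mouse, and the fit with sex as a covariate sets 1 library of each genotype in each sex. In the whole libraries 13 Rnf genes were too low to be tested at this depth.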
